A study of Mus musculus with 92 samples.

Results

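Freeze-injured tibialis anterior muscle, the large muscle at the front of the shin, was compared with the unhurt muscle of the other leg 24 h after the injury. The samples were chosen by their labels as the 24 h libraries of left (injured) and right (control) legs, which are 12 of the 80 libraries with values, 6 injured and 6 control, from 5 mice. The injured group is the left muscle of male C57BL/6J mice aged 10 weeks, whose skin was opened under fentanyl, droperidol and diazepam and whose muscle was touched for 10 seconds with a steel probe chilled on dry ice. The control group is the right muscle of the same mice, which had the same drugs and a wound in the other leg, and for which no opening of the skin is stated, so freezing and surgery cannot be told apart. Only a small portion of each muscle was sequenced, and where it lay relative to the frozen spot was not given in the sources used here. Values are FPKM, fragments per length of transcript and per total of mapped fragments, and per-muscle values are listed in the order of animals 1 to 5. How many reads lie behind a value cannot be read from FPKM, so depth is unknown.

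Muscle fibers that are frozen lose their membrane and die, and the tissue then passes through a fixed order of events. Damaged cells and resident macrophages release chemokines, neutrophils arrive within hours, monocytes follow and become macrophages that clear the debris, and satellite cells, the stem cells of muscle, divide and fuse into new fibers. A muscle taken after 1 day lies between the arrival of blood-borne cells and the making of new fibers.

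Animal 3 has 2 libraries from each leg, A and B, and the B libraries stood apart from all others. Across genes, the log2 values of the injured B library correlated with those of the control B library at 0.962, and with those of the injured A library of its own muscle at 0.886. The control B library was in turn nearer to the injured B library (0.962) than to the control A library (0.891). Among 5040 genes above 5 FPKM on average in these 4 libraries, 304 were at least 2-fold higher and 323 at least 2-fold lower in B than in A in both legs, while 5 moved by that much up in the injured and down in the control leg and 8 the other way. These are correlations and counts across genes, which are not independent. Pdk4, the kinase that shuts carbohydrate out of mitochondria in fasting, stood at 1429 and 1681 FPKM in the injured and control B libraries, against 70.6 and 26.7 FPKM in the A libraries. Dbp, a clock output gene with a strong daily rhythm, was at 1.04 and 1.45 FPKM in B and at 27.7 and 43.9 FPKM in A. The injured B library was also low in wound genes, with Spp1 at 2.39 FPKM against 105 FPKM in A, though its S100a8 was 113 against 169 FPKM. The values of each leg were averaged and counted as 1 muscle, and every count was also taken with library A alone. Where library A alone changed the count of a list, or the call of a gene described here, that is given beside the result.

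**Figure D1:**
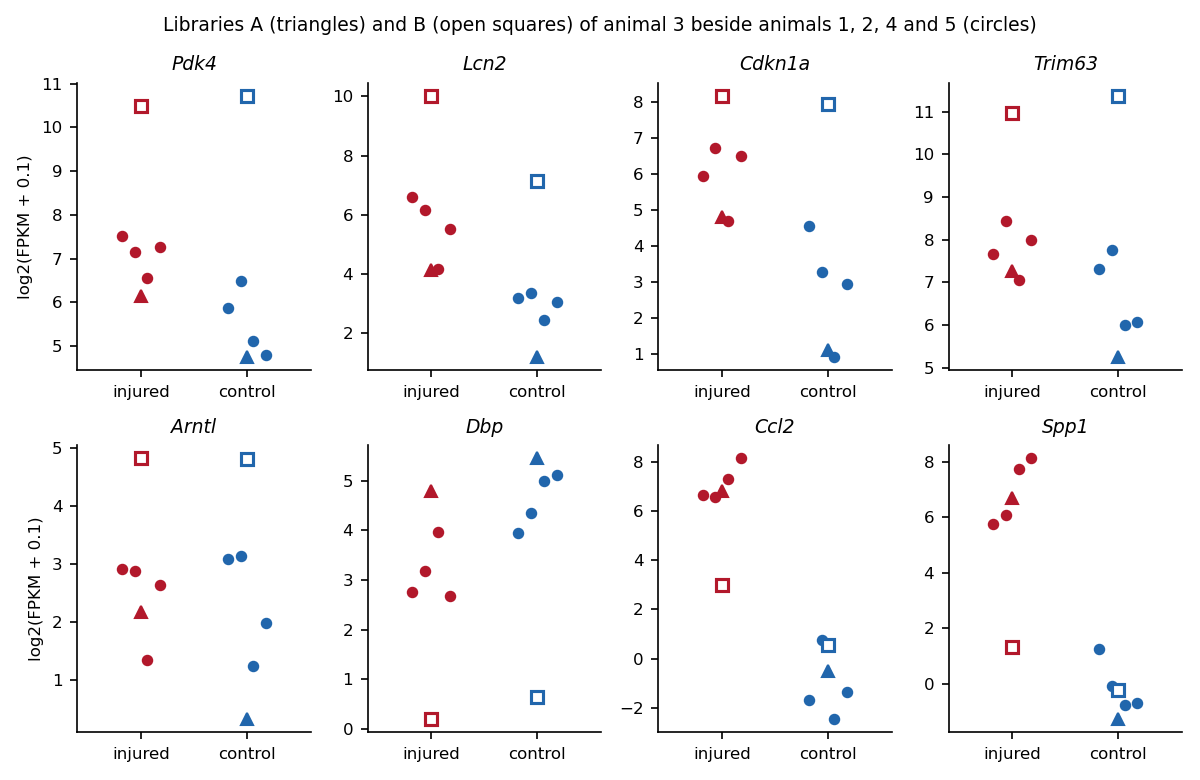
Level of 8 genes in log2(FPKM + 0.1) in injured (red, left) and control (blue, right) muscles at 24 h, 1 point a library, with animals 1, 2, 4 and 5 as circles and libraries A and B of animal 3 as triangles and open squares. The B libraries of both legs lie together above the rest for Pdk4 and Trim63 and below the rest for Dbp, while the injured B library is the lowest injured library for Ccl2 and Spp1.

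Far more genes were higher than lower in injured muscle. A gene was called where the limma test gave a Benjamini-Hochberg adjusted p under 0.05 and the mean of log2(FPKM + 0.1) differed by at least 1, that is 2-fold, between the 5 injured and 5 control muscles. Of 10421 genes with a mean of at least 1 FPKM in either group, 1710 were higher in injured muscle (16.4%) and 71 were lower (0.681%). The median log2 difference over all genes tested was 0.27. Genes above 1 FPKM numbered 8447 (library B of animal 3) to 10859 in injured libraries and 8550 to 9226 in control libraries. With library A alone 1947 genes were higher (18.6%) and 69 lower (0.658%), and 1755 genes were called both ways. Without the injured muscle of animal 3 the genes called lower numbered 118. The balance of directions depends on the scaling of libraries, since quantile normalization set the median at -0.15 and gave 860 higher and 471 lower, and median scaling set it at -0.13 and gave 1105 and 331. In 2172 genes (20.8%) all 5 injured values lay above all 5 control values, and in 349 (3.35%) all lay below. Of the genes tested, 1406 passed the filter through their injured mean alone, so a higher value was built into them, and counts of list members that rose include such genes. Of the other 9015, with a control mean of at least 1 FPKM, 792 were called higher (8.79%). Log2 differences of genes near 0 in control muscle are held down by the added 0.1.

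**Figure D2:**
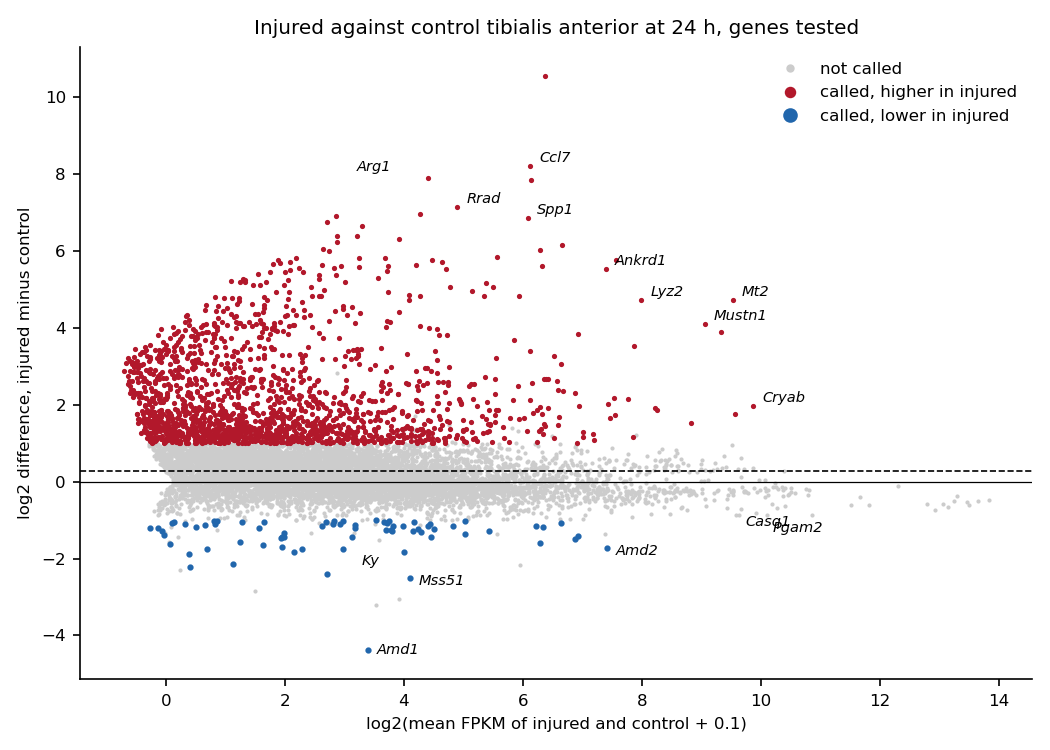
Each of the 10340 genes tested whose symbol has a single locus and is not a date, by mean level on the horizontal axis, log2(mean FPKM + 0.1), and by log2 difference, injured minus control, on the vertical axis, with genes called higher in red, called lower in blue and others in grey. The dashed line is the median difference of these genes. Called genes lie mostly above the line, and among the most abundant genes at the right, which include those of contraction and glycolysis, most differences are below 0 and short of 2-fold.

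Summed markers of cell types were set against the label of the tissue. The summed level of 10 muscle fiber markers was 48835 to 67999 FPKM in injured muscles, against 72716 to 92151 FPKM in control muscles, so fiber transcripts were abundant in both. Neutrophil markers, 7 in number, summed to 207 to 1168 FPKM in injured and to 2.74 to 59.2 FPKM in control muscles, and 9 monocyte and macrophage markers to 79.4 to 481 and to 4.0 to 10.5 FPKM. The sums of 5 T cell markers were at most 0.13 FPKM in injured and 0.0517 FPKM in control muscles, and those of NK cell, B cell and keratinocyte markers were below 1 FPKM. Endothelial markers (23.5 to 69.3 against 16.9 to 52.6 FPKM) and fibroblast markers (104 to 261 against 88.3 to 298 FPKM) overlapped between the groups. In a whole muscle a larger number of cells of a type and more RNA in each such cell cannot be told apart, and this holds for every list that follows.

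The largest rises included genes of chemotaxis, of monocytes and of stressed muscle. Ccl7, a chemokine that draws monocytes (chr11:81859214-81861025 of mm9), stood at 86.6, 107, 52.4, 147 and 299 FPKM in injured muscles, against 0.178, 1.74, 0.243, 0.286 and 0.0366 FPKM in control muscles. Its lowest injured muscle thus lay far above its highest control, and its log2 difference was 8.22 ± 0.60 (SE, adjusted p = 2.4e-06). Spp1, which encodes the matrix protein osteopontin made by wound macrophages, stood at 54.1, 67.5, 53.5, 216 and 280.4 FPKM in injured muscles, against 2.29, 0.862, 0.540, 0.493 and 0.526 FPKM in control muscles. The injured muscles of animals 4 and 5 were the highest. The injured value of animal 3 is the mean of 105 FPKM in library A and 2.39 FPKM in library B. The log2 difference was 6.87 ± 0.52 (SE, adjusted p = 3.2e-06). Chi3l3, the chitinase-like Ym1 of mouse monocytes and macrophages, was at 29.4, 17.1, 18.3, 31.0 and 95.4 FPKM in injured muscles and at no more than 0.483 FPKM in any control muscle. Clec4d, a C-type lectin receptor of myeloid cells, differed by 6.64 and Slfn4, a Schlafen gene of the myeloid lineage, by 6.40 on the log2 scale. Nppb encodes the natriuretic peptide BNP, known from strained heart muscle, and stood at 12.5, 17.9, 4.66, 7.94 and 28.2 FPKM in injured muscles, while it was listed at 0 in all 5 control muscles. A listed 0 need not mean a low level in these tables, since Myh4, a fast myosin gene abundant in muscle, is listed at 0 in 3 of the 12 libraries. Rrad, a small GTP-binding protein of muscle, had 53.1, 90.0, 27.6, 31.4 and 94.2 FPKM in injured muscles and at most 0.488 FPKM in control muscles.

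The row with the largest fitted rise carries the name of a microRNA. Mir703 (chr5:98904575-98904683 of mm9) was at 144, 239, 108, 82.4 and 254 FPKM in injured muscles and listed at 0 in all 5 control muscles. At 10 h and 48 h its control means were 27.3 and 46.9 FPKM, so 0 is not its level in every uninjured muscle. The locus spans 109 bases, and FPKM of so short a feature rests on few positions. A library of polyadenylated RNA does not measure the mature microRNA, which is shown here only to identify the row. Its mature sequence in RefSeq (GRCm38.p6, minus strand of chromosome 5, 98475616 to 98475636) is, with the seed of bases 2 to 8 in capitals:
mmu-miR-703: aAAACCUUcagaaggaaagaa

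Of 24 chemokine genes listed, 19 passed the filter, 16 rose (17 with library A alone) and none fell, where 14 of the 19 passed through the injured mean alone, with a median log2 difference of 4.83 against 0.27 over all genes tested. Ccl6, Ccl2 and Ccl7, chemokines of the CC family that act on monocytes, were the most abundant after injury, with means of 153, 139.6 and 139 FPKM in injured muscles. Ccl6 stood at 109, 95.8, 53.3, 183 and 324 FPKM in injured muscles, against 1.62, 7.80, 2.23, 1.03 and 0.718 FPKM in control muscles. Ccl12 averaged 18.5 ± 16.7 FPKM in injured and 0.258 ± 0.240 FPKM in control muscles, a log2 difference of 5.59 ± 0.53 (SE, adjusted p = 1.2e-05). Ligands of the neutrophil receptor Cxcr2 rose as well, led by Cxcl5 at 20.7, 8.24, 7.11, 10.2 and 18.5 FPKM in injured muscles and no more than 0.0165 FPKM in control muscles. Ppbp averaged 18.5 ± 14.0 FPKM in injured and 0.189 ± 0.188 FPKM in control muscles. Cxcl2 was at 3.38, 1.97, 3.01, 7.33 and 4.54 FPKM in injured muscles, against 0.0240, 0.0279, 0.214, 0 and 0 FPKM in control muscles. Cxcl3 was at 5.25, 1.82, 2.20, 7.05 and 4.12 FPKM in injured muscles and listed at 0 in every control muscle. The same held for Ccl3, a ligand for receptors of monocytes, at 2.98, 1.4, 1.35, 3.02 and 8.03 FPKM in injured muscles. Cxcl10, an interferon-induced ligand that draws T cells, differed by 3.75 ± 0.42 (SE, adjusted p = 4.1e-05). The homeostatic Cxcl12, which holds stem cells in their niche, was at 13.8 ± 5.87 FPKM in injured and 9.46 ± 3.50 FPKM in control muscles and the eosinophil chemokine Ccl11 at 7.92 ± 2.11 FPKM in injured and 6.54 ± 2.92 FPKM in control muscles, and neither was called. Cxcl14 was called with library A alone (log2 difference 1.08, adjusted p = 0.0019) and had 0.95 otherwise.

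**Figure D3:**
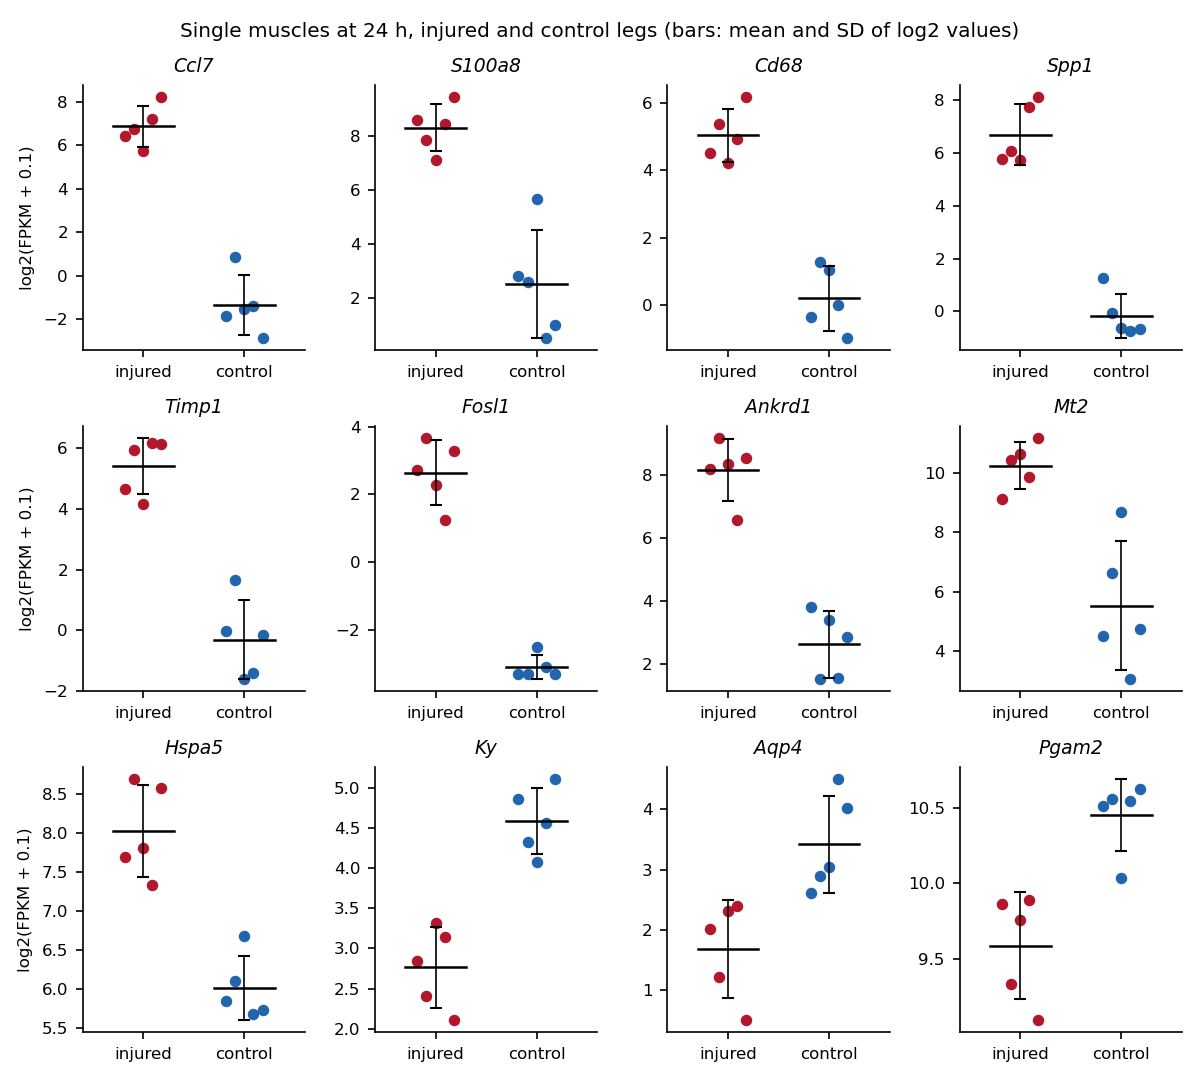
Level of 12 genes in log2(FPKM + 0.1) in single injured (red, left) and control (blue, right) muscles at 24 h, with the mean and SD of the log2 values as bars. In all 12 genes the injured and control points do not overlap, with injured muscles above control muscles in the first 9 and below them in Ky, Aqp4 and Pgam2.

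Proinflammatory cytokine genes were low in level even after injury, and 7 of the 12 listed passed the filter, each through the injured mean alone, so that their rise was in part set by the filter. These 7 were called higher, with a median of 3.04 (6 with library A alone, 5 under quantile normalization and with a pseudocount of 1). Osm, the oncostatin M of neutrophils and macrophages, was at 0.847, 0.687, 0.498, 1.77 and 2.16 FPKM in injured muscles, against 0, 0, 0.00695, 0.0140 and 0 FPKM in control muscles. Tnf, the tumor necrosis factor, was at 1.00, 0.938, 0.439, 0.627 and 2.57 FPKM in injured muscles, against 0, 0.0172, 0.0991, 0 and 0.0305 FPKM in control muscles. Without the injured muscle of animal 5 both were below the filter and not tested. Il6, a cytokine made by damaged muscle among other tissues, was at 0.947, 1.22, 1.68, 1.22 and 0.924 FPKM in injured muscles, against 0.0477, 0, 0.373, 0.0273 and 0 FPKM in control muscles, a log2 difference of 3.04 ± 0.44 (SE, adjusted p = 0.00029), and with library A alone its means were below 1 FPKM in both groups, so that it was not tested. Il33, an alarm signal held in the nuclei of stromal cells, was at 2.25, 2.55, 2.27, 3.43 and 3.92 FPKM in injured muscles, against 0.657, 2.11, 0.654, 0.511 and 0.388 FPKM in control muscles. Csf1, the growth factor of macrophages, differed by 2.65 ± 0.34 (SE, adjusted p = 0.00011). Genes that restrain these cytokines rose as well. Il1rn, the soluble antagonist of the interleukin 1 receptor, had 4.39, 3.43, 1.52, 8.12 and 10.8 FPKM in injured muscles, against 0.0285, 0, 0.0316, 0 and 0 FPKM in control muscles, and the decoy receptor Il1r2 averaged 8.27 ± 4.62 FPKM in injured and 0.406 ± 0.331 FPKM in control muscles. Socs3, the feedback inhibitor of Jak and Stat signaling, averaged 11.003 ± 4.07 FPKM in injured and 0.664 ± 0.253 FPKM in control muscles, a log2 difference of 3.86 ± 0.30 (SE, adjusted p = 3.3e-06). Of 21 receptors and restraining genes tested, 17 rose and none fell (18 with library A alone, 11 under quantile normalization and with a pseudocount of 1), and 12 of the 21 passed the filter through the injured mean alone. The receptors that rose most are borne by white cells, such as Csf3r (5.99), Csf2rb (3.67) and Il4ra (3.22). The shared signaling chain Il6st was at 35.1 ± 6.39 FPKM in injured and 24.6 ± 5.70 FPKM in control muscles, and Lifr at 3.07 ± 0.501 FPKM in injured and 3.75 ± 0.783 FPKM in control muscles.

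Of 23 neutrophil genes listed 14 passed the filter, 11 of them through the injured mean alone. These 14 were called higher (median 4.74), including the 3 with a control mean of at least 1 FPKM. S100a8 and S100a9, the subunits of the calcium-binding protein calprotectin that fills the neutrophil cytosol, were the most abundant. S100a8 stood at 390.5, 233, 141, 352 and 708 FPKM in injured muscles, against 6.99, 6.04, 50.5, 1.36 and 1.92 FPKM in control muscles. The control muscle of animal 3 was the highest control, at 6.43 FPKM in its library A and 94.6 FPKM in its library B. S100a9 was at 225, 135, 51.6, 180.2 and 402 FPKM in injured muscles, against 4.66, 0.890, 6.91, 1.06 and 1.56 FPKM in control muscles, a log2 difference of 6.15 ± 0.60 (SE, adjusted p = 1.6e-05). Cxcr2, the chemokine receptor that brings neutrophils to a wound, averaged 6.95 ± 4.83 FPKM in injured and 0.0952 ± 0.0397 FPKM in control muscles. The granule proteases Mmp9 and Mmp8 differed by 4.72 and 3.39 and the formyl peptide receptor Fpr2 by 4.77. Genes of the early granules that neutrophils fill in the marrow are on the list as well, and 7 of its members were below 1 FPKM in both groups. Of the 11 granule genes of the list 5 were among these 7, and the other 6 were called higher.

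Monocyte and macrophage genes rose in 22 of 25 tested (median 3.91) and none fell, and 18 of the 25 passed the filter through the injured mean alone. Of the other 7, with a control mean of at least 1 FPKM, 5 rose. The list holds genes of the monocytes that enter a wound from the blood. Ccr2, the receptor for Ccl2 and Ccl7, had 15.1, 15.8, 9.92, 29.3 and 59.1 FPKM in injured muscles, against 0.384, 0.773, 0.332, 0.214 and 0.311 FPKM in control muscles. Ly6c2, the surface marker of inflammatory monocytes, stood at 5.80, 9.45, 5.45, 18.5 and 47.6 FPKM in injured muscles, against 0.885, 1.38, 1.76, 1.38 and 1.53 FPKM in control muscles, a log2 difference of 3.07 ± 0.49 (SE, adjusted p = 0.00054). Genes of secreted matrix and clotting proteins followed, with Thbs1 at 14.9 ± 8.11 FPKM in injured and 0.779 ± 0.878 FPKM in control muscles and Fn1 at 17.0 ± 9.38 FPKM in injured and 1.55 ± 0.960 FPKM in control muscles. Which cells made these transcripts was not tested. F10, clotting factor X, ranged from 0.721 to 4.08 FPKM in injured muscles and was listed at 0 in all control muscles but that of animal 5, at 0.00935 FPKM. Cd68, a protein of the macrophage lysosome, was at 22.5, 41.6, 18.3, 30.1 and 72.7 FPKM in injured muscles, against 0.681, 2.35, 1.94, 0.900 and 0.405 FPKM in control muscles. The scavenger receptor Msr1 differed by 5.62, Emr1, which encodes the F4/80 antigen, by 3.91, and the growth factor receptor Csf1r by 3.32. Genes known from resident macrophages of muscle are on the list as well. Mrc1, the mannose receptor, averaged 8.74 ± 7.19 FPKM in injured and 0.786 ± 0.431 FPKM in control muscles, Folr2 6.27 ± 6.25 FPKM in injured and 1.16 ± 1.4 FPKM in control muscles, and Cd163, the hemoglobin scavenger receptor, 1.02 ± 0.644 FPKM in injured and 0.555 ± 0.271 FPKM in control muscles, which was not called. Retnla, an alternative activation gene, was at 0.985, 4.53, 2.46, 3.20 and 4.44 FPKM in injured muscles, against 4.64, 38.3, 4.53, 2.06 and 3.63 FPKM in control muscles, and its control values alone spanned more than its difference.

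Receptors and enzymes by which phagocytes take up and destroy debris were called higher in the 20 members tested of 22 listed (median 4.33), of which 15 passed the filter through the injured mean alone and 5 had a control mean of at least 1 FPKM. Fcer1g, the signaling chain of the Fc receptors, stood at 49.2, 57.6, 26.1, 73.3 and 187 FPKM in injured muscles, against 2.38, 4.54, 2.20, 1.24 and 1.45 FPKM in control muscles. Tyrobp, the partner chain of Trem2 and other receptors, averaged 157 ± 98.8 FPKM in injured and 3.18 ± 2.38 FPKM in control muscles, a log2 difference of 5.62 ± 0.47 (SE, adjusted p = 5.2e-06). Trem2 itself, a lipid receptor of macrophages, averaged 8.72 ± 8.29 FPKM in injured and 0.233 ± 0.0878 FPKM in control muscles. Subunits of the phagocyte oxidase such as Ncf1, Ncf4, Cyba and Cybb had log2 differences of 4.47, 4.41, 3.39 and 2.98. Axl, a receptor for dying cells, had the smallest difference of the list, 1.27 ± 0.37 (SE, adjusted p = 0.019). Of 16 genes that sense microbes and cell debris, 15 rose (median 2.31, 14 of the 16 through the injured mean alone, 10 under quantile normalization and with a pseudocount of 1). Tlr13, a receptor for bacterial ribosomal RNA in mice, had the largest difference, 5.18 ± 0.41 (SE, adjusted p = 4.2e-06), and Cd14, the coreceptor of Tlr4, stood at 5.70, 5.0, 3.87, 10.7 and 13.2 FPKM in injured muscles, against 0.292, 0.697, 0.796, 0.148 and 0.30 FPKM in control muscles. The inflammasome adaptor Pycard averaged 4.02 ± 3.13 FPKM in injured and 0.224 ± 0.102 FPKM in control muscles, and Nod1, which is found in many tissues, 1.95 ± 0.524 FPKM in injured and 1.69 ± 0.326 FPKM in control muscles, with no call.

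Antigen presentation by MHC class II rose in the 8 members tested of 10 listed (median 2.07), of which 3 passed the filter through the injured mean alone, with H2-Aa at 31.5 ± 17.7 FPKM in injured and 7.24 ± 3.60 FPKM in control muscles and its invariant chain Cd74 at 24.1, 34.6, 16.7, 34.3 and 81.5 FPKM in injured muscles, against 6.63, 16.5, 6.45, 5.55 and 7.87 FPKM in control muscles. Ctss, the cathepsin that trims the invariant chain, had the largest difference of that list, 5.16 ± 0.47 (SE, adjusted p = 9.4e-06). Of 18 complement genes, 9 rose (10 with library A alone) and 1 fell. The 3 chains of C1q, made by macrophages, had log2 differences of 2.36 (C1qa), 2.89 (C1qb) and 2.51 (C1qc), and C1qb averaged 39.2 ± 35.8 FPKM in injured and 4.59 ± 3.47 FPKM in control muscles. The receptors C3ar1 and C5ar1 differed by 5.12 and 4.76. C1s, which is made by stromal cells, was at 6.19 ± 2.06 FPKM in injured and 5.39 ± 1.24 FPKM in control muscles. The gene that fell is Cfd, the complement factor D of fat cells, at 0.641, 0.705, 1.18, 2.42 and 5.46 FPKM in injured muscles, against 20.6, 18.1, 4.23, 3.36 and 7.73 FPKM in control muscles. The injured muscle of animal 5 lay above the control muscles of animals 3 and 4, and the log2 difference was -2.40 ± 0.61 (SE, adjusted p = 0.0098). Interferon-stimulated genes rose in 15 of 20 tested, of which 11 passed through the injured mean alone (9 under quantile normalization and with a pseudocount of 1), among them Zbp1 (3.91), Oas1a (3.45) and the membrane protein Ifitm3 at 128 ± 99.0 FPKM in injured and 28.4 ± 6.80 FPKM in control muscles. Gbp2, which answers to interferon gamma, averaged 2.74 ± 1.52 FPKM in injured and 1.87 ± 0.732 FPKM in control muscles, with no call. Lysosomal genes rose in 12 of 21 tested (median 1.32). Those that rose include Lgmn at 72.5 ± 47.1 FPKM in injured and 9.66 ± 1.65 FPKM in control muscles and Laptm5 at 15.7 ± 13.7 FPKM in injured and 0.589 ± 0.425 FPKM in control muscles, while Lamp1, the main lysosomal membrane protein of every cell, was at 169 ± 19.1 FPKM in injured and 167 ± 23.0 FPKM in control muscles and Tfeb, the factor that drives lysosome genes, at 14.7 ± 1.68 FPKM in injured and 15.5 ± 4.18 FPKM in control muscles.

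**Figure D4:**
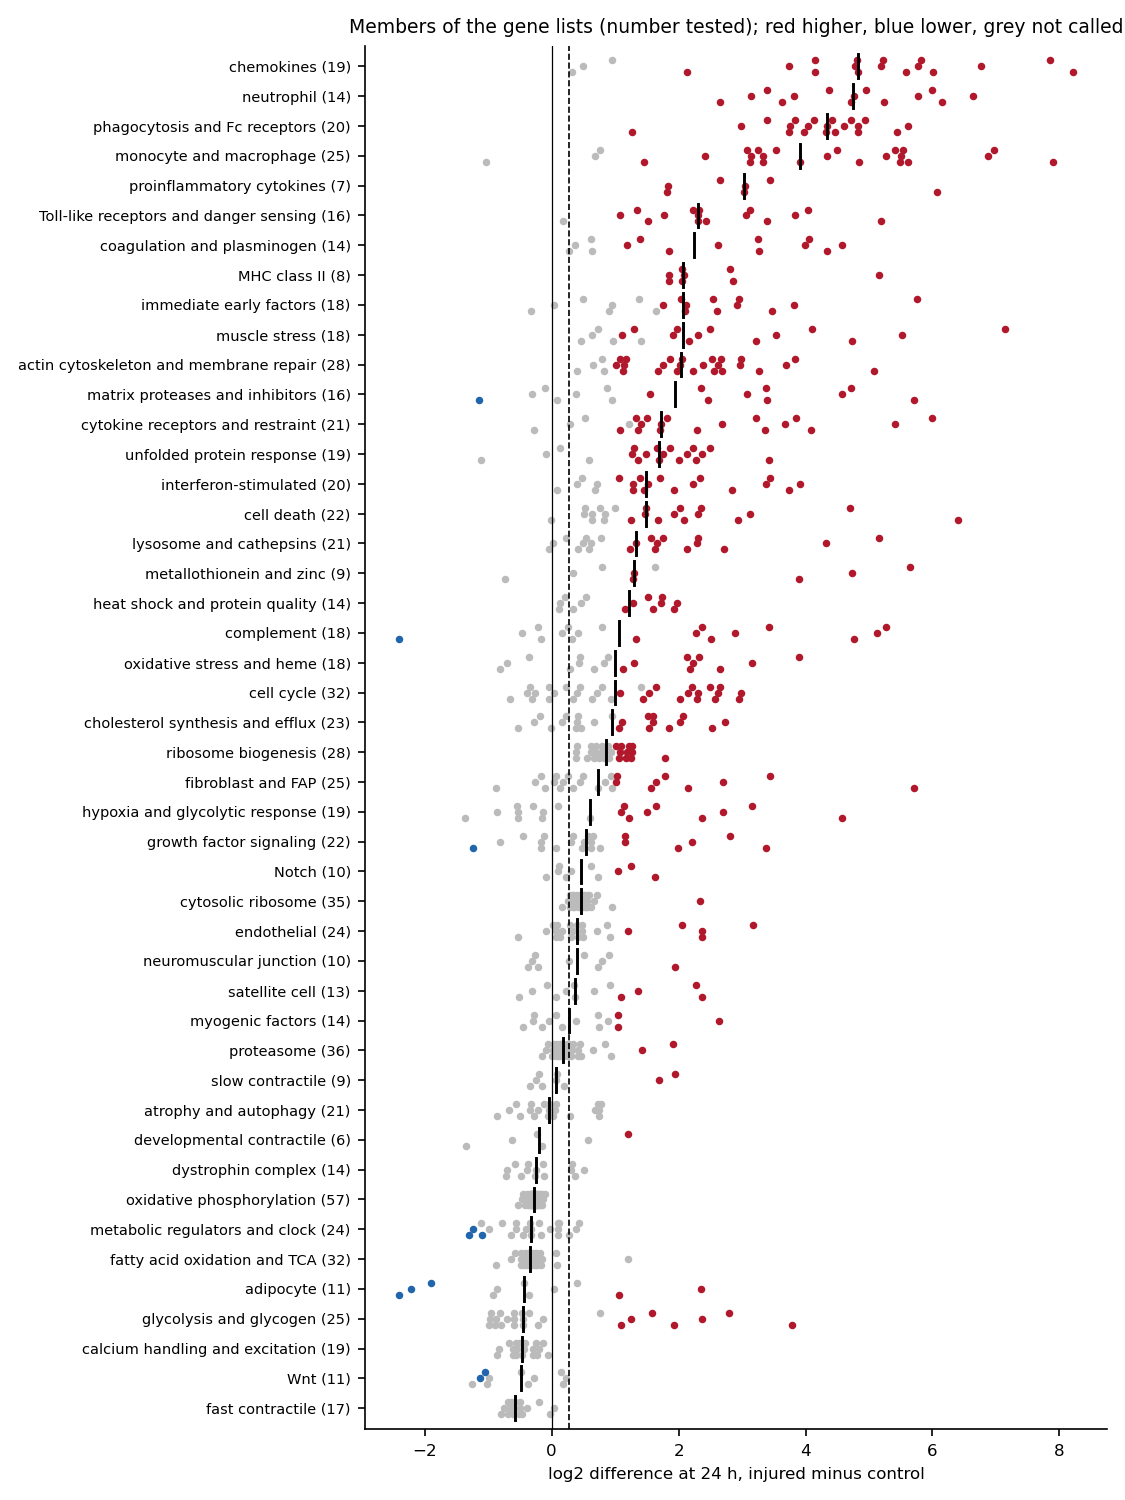
Log2 difference, injured minus control at 24 h, of each tested member of the lists with 5 or more members tested, 1 point a gene, red called higher, blue called lower and grey not called. A black bar is the median of a list, and the dashed line is that of all genes tested whose symbol has a single locus and is not a date. Chemokine, neutrophil and phagocyte lists stand at the top with medians of 4.83, 4.74 and 4.33, and lists of contraction, calcium handling and energy supply at the bottom with medians below 0.

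Genes of clotting and of its removal rose in 10 of 14 tested (median 2.24). The filter was passed through the injured mean alone by 6 of the 14, and 6 of the other 8 rose. Plaur, the receptor of urokinase, had 6.24, 7.57, 4.65, 6.32 and 13.9 FPKM in injured muscles, against 0.247, 0.266, 1.3, 0.221 and 0.181 FPKM in control muscles, and urokinase itself, Plau, averaged 13.1 ± 7.89 FPKM in injured and 3.20 ± 0.883 FPKM in control muscles. Thbd, the thrombin receptor of vessels and monocytes, was at 35.1, 71.6, 24.5, 17.1 and 53.6 FPKM in injured muscles, against 1.44, 3.66, 2.39, 1.19 and 2.89 FPKM in control muscles, a log2 difference of 3.99 ± 0.39 (SE, adjusted p = 1.5e-05). Tissue factor (F3), which starts clotting, was at 1.44 ± 0.291 FPKM in injured and 0.905 ± 0.171 FPKM in control muscles, with no call. Among 16 matrix proteases and inhibitors, 9 rose (10 with library A alone) and 1 fell. The injured mean alone let 7 of the 16 pass the filter, and 3 of the other 9 rose. Timp1, an inhibitor of metalloproteinases, stood at 25.0, 60.7, 17.8, 72.2 and 69.2 FPKM in injured muscles, against 0.896, 3.06, 0.228, 0.283 and 0.795 FPKM in control muscles, a log2 difference of 5.70 ± 0.58 (SE, adjusted p = 2.1e-05). Its relative Timp4, typical of unhurt muscle, was lower at 3.58 ± 1.10 FPKM in injured and 8.50 ± 3.55 FPKM in control muscles (-1.15 ± 0.32, SE, adjusted p = 0.016), a call lost with a pseudocount of 1 and held in 8 of 10 fits that left out 1 muscle. Mmp3 and Mmp19 differed by 3.38 and 3.08, and Mmp2, the constitutive gelatinase of fibroblasts, by 0.09. Fibroblast genes rose in 9 of 25 tested (10 with library A alone, 4 higher and 1 lower under quantile normalization). The 9 include the early wound matrix genes Tnc, Prg4 at 17.5 ± 10.3 FPKM in injured and 1.68 ± 1.32 FPKM in control muscles and Lox at 6.79 ± 3.99 FPKM in injured and 1.88 ± 2.01 FPKM in control muscles, of which Lox held in 4 of 10 fits that left out 1 muscle. The collagens that build a scar were not called, with Col1a1 at 2.78, 9.63, 4.0, 14.3 and 9.0 FPKM in injured and 5.37, 6.42, 3.85, 3.13 and 6.79 FPKM in control muscles and Col3a1 averaging 29.7 ± 15.9 FPKM in injured and 14.8 ± 3.73 FPKM in control muscles.

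Genes that muscle fibers switch on under strain or damage rose in 13 of 18 tested (median 2.06) and in 16 with library A alone, where Fhl1, Gadd45a and Chrna1 were added, of which Gadd45a was also called in the blocked fit, with animal as a term (1.41, adjusted p = 0.0021). Ankrd1, a repeat protein of the sarcomere that enters the nucleus under strain, stood at 289, 578, 326, 94.1 and 370.1 FPKM in injured muscles, against 13.9, 2.79, 10.5, 2.85 and 7.14 FPKM in control muscles. Mustn1, a small nuclear protein of muscle and bone repair, averaged 1015 ± 595 FPKM in injured and 53.4 ± 14.9 FPKM in control muscles, a log2 difference of 4.10 ± 0.33 (SE, adjusted p = 4.6e-06). Xirp1, which binds actin at damaged sites of the fiber, was at 72.1, 118, 109.7, 48.4 and 73.5 FPKM in injured muscles, against 7.14, 5.87, 15.9, 6.28 and 10.7 FPKM in control muscles. Csrp3, the muscle LIM protein, averaged 431 ± 247 FPKM in injured and 35.4 ± 17.3 FPKM in control muscles. Flnc, filamin C of the Z-disc, averaged 194 ± 65.7 FPKM in injured and 39.7 ± 16.4 FPKM in control muscles. Sln, an inhibitor of the calcium pump, was at 6.42 ± 3.21 FPKM in injured and 4.20 ± 0.476 FPKM in control muscles, with no call.

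Immediate early transcription factors, which answer within minutes, were still called higher at 24 h in 11 of 18 tested (median 2.07), in 14 with library A alone and in 13 in the blocked fit, with animal as a term. Fosl1, the Fra-1 subunit of the AP-1 factor, had 6.51, 12.7, 4.79, 2.24 and 9.72 FPKM in injured muscles and no more than 0.0763 FPKM in any control muscle. Egr1, a zinc finger factor, was at 16.7, 19.5, 45.2, 6.41 and 25.6 FPKM in injured muscles, against 1.86, 1.28, 1.88, 1.43 and 1.73 FPKM in control muscles, with the injured muscle of animal 3 the highest. Fos averaged 11.4 ± 5.40 FPKM in injured and 2.55 ± 0.983 FPKM in control muscles and Junb 21.0 ± 7.59 FPKM in injured and 3.76 ± 2.31 FPKM in control muscles, while Jun averaged 15.5 ± 4.82 FPKM in injured and 16.8 ± 11.2 FPKM in control muscles, a log2 difference of 0.04 ± 0.36 (SE, adjusted p = 0.94). Atf3, a stress factor of the same family, was at 42.1, 64.6, 71.0, 25.1 and 36.0 FPKM in injured muscles, against 2.07, 3.17, 16.3, 1.76 and 1.35 FPKM in control muscles. Nr4a1, another early factor, had 19.6 ± 6.35 FPKM in injured and 25.4 ± 9.94 FPKM in control muscles and was not called.

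The unfolded protein response, which raises chaperones when the endoplasmic reticulum is overloaded, showed 15 of 19 genes higher (median 1.70). Hspa5, its main chaperone, was at 206, 414, 224, 162 and 382 FPKM in injured muscles, against 57.5, 69.0, 102, 51.2 and 53.1 FPKM in control muscles. The injured muscles of animals 2 and 5 were the highest, and the log2 difference was 2.01 ± 0.27 (SE, adjusted p = 0.00016). Sdf2l1, Manf and Creld2 are smaller proteins of the same compartment. Sdf2l1 averaged 16.8 ± 10.04 FPKM in injured and 1.3 ± 0.402 FPKM in control muscles. Manf averaged 32.1 ± 17.3 FPKM in injured and 5.11 ± 1.19 FPKM in control muscles, and Creld2 had a log2 difference of 2.22. Atf4, a factor of this response, was at 185 ± 52.9 FPKM in injured and 128 ± 53.6 FPKM in control muscles, with no call. Chac1, a target of Atf4, was at 18.2, 5.30, 39.2, 5.48 and 2.6 FPKM in injured muscles, against 26.4, 21.5, 53.4, 8.24 and 10.98 FPKM in control muscles, with overlap between the groups and a call, in the lower direction, in the blocked fit (-1.12, adjusted p = 0.20 without and 0.011 with the block). Of 14 heat shock genes 8 rose (5 under quantile normalization and with a pseudocount of 1). The small heat shock proteins that bind the sarcomere were the most abundant, with Cryab at 1074, 2116, 1143, 1357 and 1817 FPKM in injured muscles, against 302, 328, 397, 383 and 464 FPKM in control muscles and Hspb7 at 468 ± 32.0 FPKM in injured and 133 ± 66.6 FPKM in control muscles. Hsp90aa1, the inducible cytosolic Hsp90, differed by 1.6 ± 0.22 (SE, adjusted p = 0.00017), and the mitochondrial chaperonin Hspd1 by 0.11.

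Metallothioneins, small proteins that bind zinc and copper, were among the most abundant genes that rose. Mt2 stood at 556, 1391, 1591, 934 and 2345 FPKM in injured muscles, against 22.8, 98.0, 412, 8.14 and 26.7 FPKM in control muscles. The control values differed widely among themselves, with the highest in animal 3, where Mt2 was at 820.1 FPKM in library B and 3.19 FPKM in library A. Even so all 5 injured values lay above all 5 control values, and the log2 difference was 4.73 ± 0.83 (SE, adjusted p = 0.001) and 6.07 with library A alone. Mt1 followed with 1149 ± 569 FPKM in injured and 145 ± 221 FPKM in control muscles and Mt3, the form known from brain, with 36.2 ± 28.1 FPKM in injured and 0.531 ± 0.195 FPKM in control muscles. Of 6 zinc transporters and regulators, the importer Slc39a10 and the exporter Slc30a1 rose, both by 1.29, and both calls were lost under quantile normalization. Slc39a14, the zinc and iron importer of inflammation, was called with library A alone (1.81, adjusted p = 1.5e-05) and in the blocked fit (1.63, adjusted p = 0.00071). Genes against oxidative stress and for iron handling rose in 9 of 18 tested (10 with library A alone, 5 higher and 2 lower under median scaling). Hmox1, which degrades heme, was at 29.1, 26.1, 33.0, 56.9 and 58.0 FPKM in injured muscles, against 2.22, 5.08, 20.6, 2.49 and 2.22 FPKM in control muscles, and Srxn1, sulfiredoxin, averaged 101 ± 44.4 FPKM in injured and 37.6 ± 46.0 FPKM in control muscles. The ferritin light chain Ftl1 averaged 304 ± 145 FPKM in injured and 68.5 ± 33.6 FPKM in control muscles, while the heavy chain Fth1 had 1455 ± 199 FPKM in injured and 1220.2 ± 303 FPKM in control muscles. The transferrin receptor Tfrc was at 19.4, 31.7, 49.2, 32.9 and 44.0 FPKM in injured and 20.4, 45.7, 79.5, 125 and 79.9 FPKM in control muscles, with no call.

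Promoters of the genes that rose were searched for short binding words, as a description only. In the 250 bases before the start of transcription, taken from RefSeq (GRCm38.p6), the AP-1 word TGACTCA on either strand was in 5.66% of promoters of genes called higher, in 3.33% of those of all genes tested and in 4.46% of all promoters in the table. The core of the metal response element, TGCGCNC on either strand, was in 17.7%, 21.8% and 12.5% of the same sets. The STAT word TTCCNGGAA was in 0.964%, 0.886% and 0.913%, the NF-kB word GGGNNTTCC in 6.87%, 6.22% and 4.98%, and the hypoxia word ACGTG in 19.6%, 22.2% and 16.6%. The E-box CAGCTG was in 11.6% of promoters of genes called higher and in 23.9% of those of genes called lower, against 1209 of 10050 promoters of all genes tested. Words of this length occur by chance, and a match is not a site that was measured. Of 251 list members called higher with a promoter in the table, 18 hold the AP-1 word in that stretch. This is a count of genes, which can have several promoters each, while the shares above are of promoters. The same count over all genes tested is not given here, so these 18 genes cannot be set against those shares. Among the metallothioneins, neither the AP-1 nor the metal word was in the 250 bases before the start of Mt1 or Mt3, which also rose. The promoter of Mt2 is shown because it holds both an AP-1 and a metal word, in capitals, in the 150 bases before its start (plus strand, chr8:94172468-94172617 of GRCm38.p6):
Mt2: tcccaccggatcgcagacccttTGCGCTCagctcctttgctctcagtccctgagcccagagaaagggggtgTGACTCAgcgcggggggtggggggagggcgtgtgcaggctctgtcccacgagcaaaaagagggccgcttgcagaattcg
The following stretches show the AP-1 word, in capitals and in either orientation, in promoters of other genes with large rises described here, each read 5′ to 3′ on the strand of the gene (chr2:24336699-24336745, chr11:69666293-69666339, chr7:24462394-24462440, chr5:92348937-92348983 and chr9:69453568-69453614 of GRCm38.p6):
Il1rn: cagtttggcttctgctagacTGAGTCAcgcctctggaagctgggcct
Cd68: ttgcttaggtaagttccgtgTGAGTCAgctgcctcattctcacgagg
Plaur: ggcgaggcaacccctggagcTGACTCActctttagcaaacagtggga
Cxcl10: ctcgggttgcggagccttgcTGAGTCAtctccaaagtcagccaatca
Anxa2: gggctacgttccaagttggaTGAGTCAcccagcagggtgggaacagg

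Actin regulators, annexins and S100 proteins, which motile cells and membrane repair both use, rose in 24 of 28 tested (median 2.03). Lgals3, the galectin of macrophages, had the largest difference, 5.07 ± 0.50 (SE, adjusted p = 1.6e-05). Anxa2, which gathers at torn membranes and on plasmin receptors, was at 90.3, 203, 52.5, 160.3 and 344 FPKM in injured muscles, against 12.5, 23.2, 11.1, 12.6 and 15.2 FPKM in control muscles, and its partner S100a10 averaged 167 ± 95.2 FPKM in injured and 24.2 ± 8.37 FPKM in control muscles. S100a4, a calcium-binding protein of motile cells, averaged 225 ± 139 FPKM in injured and 17.2 ± 15.7 FPKM in control muscles. Vim, the intermediate filament of nonmuscle cells, averaged 144 ± 89.3 FPKM in injured and 20.01 ± 7.58 FPKM in control muscles. Anxa6, an annexin of muscle membranes, was at 74.1 ± 15.3 FPKM in injured and 46.7 ± 7.17 FPKM in control muscles, with no call. Cell death genes rose in 13 of 22 tested, of which 11 passed through the injured mean alone (median 1.48, 14 with library A alone). Ripk3 and Mlkl carry out necroptosis, and Gsdmd opens the pores of pyroptosis. Ripk3 averaged 2.55 ± 1.79 FPKM in injured and 0.174 ± 0.0890 FPKM in control muscles, Mlkl had a log2 difference of 2.08, and Gsdmd averaged 3.73 ± 2.77 FPKM in injured and 0.696 ± 0.157 FPKM in control muscles. Bax differed by 1.25 ± 0.27 (SE, adjusted p = 0.0041), and on the side of survival Bcl2l1 by 1.49 ± 0.38 (SE, adjusted p = 0.011). The death receptor Fas averaged 4.67 ± 0.590 FPKM in injured and 2.74 ± 0.603 FPKM in control muscles. Mcl1, which blocks cell death, averaged 56.0 ± 9.37 FPKM in injured and 31.3 ± 6.34 FPKM in control muscles, and both genes were not called, with all injured values above all control values and short of 2-fold.

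Genes that a fast muscle needs for contraction and energy were not called, with list medians below 0, and how many were called lower depended on the scaling of libraries. Of 17 fast contractile genes none was called by limma, while 14 had an unadjusted and also an adjusted p under 0.05 and were short of 2-fold (median -0.58, and -0.13 under quantile normalization). Among all 10421 genes tested, 4991 had an unadjusted and 3791 an adjusted p under 0.05 by limma, in either direction. Under median scaling 7 of the 17 were called lower (median -0.97), under upper quartile scaling 1 and under quantile normalization none. In 7 of the 17 all injured values lay below all control values, as they did in 3.35% of all genes tested. Tnnt3, fast troponin T, stood at 10507, 9153, 10809, 7712 and 8296 FPKM in injured muscles, against 16829.5, 14661, 12551, 13391 and 12747 FPKM in control muscles. Its log2 difference was -0.60 ± 0.14 (SE, adjusted p = 0.0053), below the threshold of size. Casq1, the calcium store protein of the sarcoplasmic reticulum, had 565, 508, 679.7, 478 and 509.9 FPKM in injured muscles, against 1195, 951, 763, 1108 and 965 FPKM in control muscles, and none of 19 genes of calcium handling and excitation was called by limma, with 12 at an unadjusted and 11 at an adjusted p under 0.05 (median -0.46, 5 called lower under median scaling and 2 under upper quartile scaling). Glycolysis divided by form of the enzyme. The muscle forms, 17 in number, were not called (median -0.60), whereas 4 were called lower under quantile normalization, 7 under upper quartile scaling and 8 under median scaling, and 11 of them had all injured values below all control values, against the same 3.35%. Without the injured muscle of animal 3 the list had 3 genes called lower. Pgam2, the muscle phosphoglycerate mutase, was at 931, 644, 866, 949 and 545 FPKM in injured muscles, against 1466, 1513, 1049, 1496 and 1579 FPKM in control muscles, a log2 difference of -0.87 ± 0.18 (SE, adjusted p = 0.0027). Gpd1 and Phka1 differed by -0.98 and -0.97, and both were called lower under quantile normalization. Of 8 forms used in other tissues 7 rose, among them Pgam1 at 9.49, 12.2, 6.31, 13.9 and 23.8 FPKM in injured muscles, against 2.72, 3.15, 2.90, 2.99 and 3.63 FPKM in control muscles, Hk3, the hexokinase of white cells, at 2.42 ± 1.84 FPKM in injured and 0.0525 ± 0.0247 FPKM in control muscles, and Eno1 at 32.0 ± 16.2 FPKM in injured and 12.3 ± 0.827 FPKM in control muscles. Among these 7, 5 passed the filter through the injured mean alone, so a higher value was built into them. The other 2 had a control mean of at least 1 FPKM.

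Mitochondrial genes had smaller differences. Of 57 genes of oxidative phosphorylation limma called none, 14 had an unadjusted and 5 an adjusted p under 0.05, and every one of the 57 had a log2 difference below 0, with a median of -0.28 and a range from -0.53 (Ndufs7) to -0.10 (Ndufa1). Among all 10421 genes tested 4991 had an unadjusted and 3791 an adjusted p under 0.05 by limma. Those are larger shares than in any list given with such counts in this paragraph. None of 32 genes of fatty acid oxidation and the citric acid cycle was called by limma (median -0.33, 9 with an unadjusted and 4 with an adjusted p under 0.05, 1 called lower under median scaling), apart from Pdk4 with library A alone, called higher (1.53, adjusted p = 0.0028), and in the blocked fit (1.21, adjusted p = 0.016). Dystrophin and its partners were called by limma in 0 of 14 cases (median -0.25, 5 with an unadjusted and 4 with an adjusted p under 0.05, 1 called lower under quantile normalization and 2 under median scaling). The atrophy and autophagy list of 21 had 0 calls by limma (median -0.05, and 0.15 with library A alone, 6 with an unadjusted and 5 with an adjusted p under 0.05, 2 called lower under median scaling). Its ubiquitin ligase Trim63, known as MuRF1, was at 205, 345, 1072, 133 and 253 FPKM in injured and 160.3, 216, 1337, 64.1 and 66.9 FPKM in control muscles, where the values of animal 3 include the B libraries, and was called higher with library A alone (1.2, adjusted p = 0.03), as was Gabarapl1 (1.03). Among 24 metabolic and clock regulators 3 fell and none rose (6 fell under quantile normalization and 7 under median scaling). Mstn, the myostatin that limits muscle growth, was at 6.33, 5.37, 20.2, 4.64 and 6.81 FPKM in injured muscles, against 20.03, 20.6, 28.5, 13.3 and 10.8 FPKM in control muscles, a log2 difference of -1.25 ± 0.37 (SE, adjusted p = 0.02), and Dbp was at 6.70, 9.02, 14.4, 15.5 and 6.30 FPKM in injured muscles, against 15.4, 20.2, 22.7, 31.7 and 34.9 FPKM in control muscles (-1.29 ± 0.29, SE, adjusted p = 0.0049). The clock gene Arntl averaged 7.91 ± 5.11 FPKM in injured and 7.57 ± 4.82 FPKM in control muscles, with no call. All 9 slow contractile genes tested had a control mean of at least 1 FPKM, and 8.79% of all such genes were called higher. Of the 9, 2 rose, or 22.2% against the 16.4% of all genes tested. These were Tpm3 at 23.0 ± 12.8 FPKM in injured and 5.34 ± 0.882 FPKM in control muscles and the calcium pump Atp2a2 at 13.9 ± 6.20 FPKM in injured and 4.03 ± 1.16 FPKM in control muscles, both of which other cell types also make, and the slow troponin Tnni1 was at 1.59 ± 0.887 FPKM in injured and 1.92 ± 1.26 FPKM in control muscles. Of 6 developmental contractile genes Mybph rose, at 29.1 ± 5.56 FPKM in injured and 13.4 ± 6.50 FPKM in control muscles. That is 16.7%, against 16.4% of all genes tested. All 6 had a control mean of at least 1 FPKM, and of all such genes 8.79% rose. The fetal actin Actc1 (84.5 ± 46.3 FPKM in injured and 248 ± 239.8 FPKM in control muscles) and neonatal myosin Myh8 (13.8 ± 4.87 FPKM in injured and 20.3 ± 3.10 FPKM in control muscles) were not called, apart from Actc1 in the blocked fit (-1.35, adjusted p = 0.004).

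The 12 largest falls among called genes whose groups do not overlap included genes of the muscle fiber. Mss51, a mitochondrial protein of fast muscle, had 2.40, 2.28, 8.39, 4.26 and 4.94 FPKM in injured muscles, against 16.3, 13.4, 81.7, 17.5 and 19.98 FPKM in control muscles, where the control muscle of animal 3 stood at 15.7 FPKM in library A and 148 FPKM in library B. Its log2 difference was -2.50 ± 0.47 (SE, adjusted p = 0.0017), and -1.90 with library A alone. Ky, a protease-like protein of the Z-disc, was at 7.10, 5.22, 9.85, 8.74 and 4.20 FPKM in injured muscles, against 29.0, 20.01, 16.7, 23.4 and 34.6 FPKM in control muscles. Aqp4, the water channel of the fast fiber membrane, was at 3.91, 2.20, 4.83, 5.14 and 1.3 FPKM in injured muscles, against 6.03, 7.35, 8.17, 22.8 and 16.2 FPKM in control muscles, and the nearest values of the groups were 5.14 and 6.03 FPKM. Lrrc38, a subunit of a potassium channel, differed by -1.74 ± 0.24 (SE, adjusted p = 0.00021) and Gdap1, a protein of the mitochondrial outer membrane, by -1.44 ± 0.22 (SE, adjusted p = 0.00036). Ostn, the secreted peptide musclin, stood at 0.935, 1.29, 1.47, 1.18 and 0.533 FPKM in injured muscles, against 2.81, 2.85, 3.85, 1.99 and 5.71 FPKM in control muscles. Amd1 and Amd2, which encode the enzyme that commits S-adenosylmethionine to polyamine synthesis, occupy nearly the same bases in the table (chr10:40007264-40021994 and chr10:40007271-40021992 of mm9), so how reads were divided between them is uncertain. Both were lower. Amd1 had a log2 difference of -4.39 ± 1.00 (SE, adjusted p = 0.0055), and Amd2 was at 49.5, 78.3, 124, 60.4 and 93.0 FPKM in injured muscles, against 164, 242, 289, 309 and 294 FPKM in control muscles. The other 4 of the 12 largest falls were Cers1, a ceramide synthase of muscle and brain (-2.15), the cytochrome Cyp2e1 (-1.61), the actin-related Actr3b (-1.46) and the carboxylesterase Ces1d (-1.43).

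Genes that growing cells use differed in extent. Ribosome biogenesis genes rose in 11 of 28 tested (median 0.86, 15 with library A alone, 2 under quantile normalization, 1 under median scaling, 4 under upper quartile scaling, 5 with a pseudocount of 1 and 7 without the injured muscle of animal 2), with the nucleolar Npm1 at 153, 246, 127, 140.5 and 229 FPKM in injured muscles, against 91.5, 88.1, 90.2, 62.3 and 59.2 FPKM in control muscles and Nop58 at 24.3 ± 10.03 FPKM in injured and 6.74 ± 2.02 FPKM in control muscles. Genes of the cytosolic ribosome itself were called in 1 of 35 (median 0.46), and in 2 with library A alone. The 1 gene is Rpl3, at 29.2, 50.5, 26.5, 34.5 and 75.9 FPKM in injured muscles, against 6.09, 10.4, 12.5, 5.61 and 6.66 FPKM in control muscles, and it had the lowest mean of the 35 in control muscle. By limma 29 of the 35 had an unadjusted and 20 an adjusted p under 0.05, all of them higher. Among all 10421 genes tested these numbers were 4991 and 3791, in either direction. Of 36 proteasome genes 2 rose (3 with library A alone), the immunoproteasome subunits Psmb8 (1.91) and Psmb9 (1.42), and the median of the list, 0.19, turned to -0.21 under median scaling and -0.04 under upper quartile scaling. Cholesterol genes rose in 11 of 23 (median 0.94, 12 with library A alone, 6 higher and 2 lower under quantile normalization). Sqle, which commits squalene to sterols, averaged 2.22 ± 1.43 FPKM in injured and 0.249 ± 0.0527 FPKM in control muscles, while Fdft1 was at 16.7 ± 3.26 FPKM in injured and 20.2 ± 2.78 FPKM in control muscles. Apoe, which carries lipid out of macrophages, had 28.1, 37.3, 28.7, 59.5 and 204 FPKM in injured muscles, against 14.5, 19.2, 9.70, 8.71 and 11.7 FPKM in control muscles. Cell cycle genes rose in 15 of 32 tested (16 with library A alone, 9 with a pseudocount of 1, 7 higher and 1 lower under quantile normalization, 8 without the injured muscle of animal 5). Through the injured mean alone 13 of the 32 passed the filter, and 4 of the other 19 rose. Among S phase genes, Pcna averaged 53.0 ± 21.7 FPKM in injured and 17.2 ± 2.63 FPKM in control muscles and the helicase subunit Mcm5 2.0 ± 1.48 FPKM in injured and 0.123 ± 0.0296 FPKM in control muscles, while the kinase Cdk1, needed for mitosis, reached 0.0601, 0.593, 0.782, 1.14 and 3.12 FPKM in injured muscles, against 0.0316, 0.0456, 0.128, 0.0448 and 0.105 FPKM in control muscles, and was below the filter without the injured muscle of animal 5.

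Most satellite cell and myogenic genes were not called. Of 13 satellite cell and fusion genes 4 rose, Cxcr4 (2.37), Itga7 (1.37), Myof (2.28) and Dysf (1.09), of which Cxcr4 and Itga7 are also made by other cells, and 8 of the 21 listed were below 1 FPKM in both groups. The filter was passed through the injured mean alone by 3 of the 13, and 2 of the other 10 rose. Cdh15, the M-cadherin of satellite cells, was at 4.14 ± 0.449 FPKM in injured and 4.0 ± 0.968 FPKM in control muscles. Of 14 myogenic factors 3 rose, which is 21.4% against the 16.4% of all genes tested, and 1 under quantile normalization, under either other scaling and with a pseudocount of 1. All 14 had a control mean of at least 1 FPKM, and 8.79% of all such genes were called higher. Myod1, which commits cells to the muscle lineage, stood at 7.84, 12.8, 12.5, 9.67 and 22.5 FPKM in injured muscles, against 3.88, 14.0, 3.29, 5.51 and 7.11 FPKM in control muscles, a log2 difference of 1.04 ± 0.37 (SE, adjusted p = 0.042), and this call was lost under quantile normalization (0.75) and held in 3 of 10 fits that left out 1 muscle. Myog, which drives differentiation, was at 3.55, 4.88, 14.9, 6.23 and 10.4 FPKM in injured muscles, against 0.807, 14.4, 9.95, 2.65 and 2.25 FPKM in control muscles, with no call and with overlap between the groups. Id1 and Id2, which hold such factors back in many cell types, were the other 2, of which Id1 held in 2 of those fits. Growth factor genes rose in 6 of 22 and fell in 1, which is Mstn (2 rose under quantile normalization, and 3 and none without the injured muscle of animal 2). The 6 that rose are 27.3%, against 16.4% of all genes tested. Through the injured mean alone 4 of the 22 passed the filter, and 2 of the other 18 rose. The share of these 2, 11.1%, is near the 8.79% of all genes with a control mean of at least 1 FPKM. Hbegf, a ligand of the EGF receptor, averaged 12.9 ± 4.16 FPKM in injured and 3.05 ± 0.587 FPKM in control muscles. Tgfb1 averaged 3.50 ± 2.64 FPKM in injured and 0.582 ± 0.188 FPKM in control muscles, and Igf1, the main growth factor of muscle, 3.94 ± 1.99 FPKM in injured and 2.77 ± 0.559 FPKM in control muscles. Notch genes rose in 3 of 10 (Notch1, Notch2 and Rbpj), where 6 of the 10 passed through the injured mean alone, and none rose under quantile normalization, where the median turned from 0.47 to -0.52. Wnt genes fell in 2 of 11 (Frzb and Wnt4) and rose in none, and those called lower were 6 under quantile normalization, 4 under median scaling, 3 under upper quartile scaling, none with a pseudocount of 1 and none to 3 without 1 muscle. Of 10 genes of the neuromuscular junction Chrnd rose, at 2.25 ± 0.959 FPKM in injured and 0.479 ± 0.0842 FPKM in control muscles (3 with library A alone). Endothelial genes rose in 5 of 24, or 20.8%, a share near the 16.4% of all genes tested. The injured mean alone let 5 of the 24 pass the filter, and 1 of the other 19 rose. Angpt2 and Apln are made by sprouting vessels, and Angpt2 averaged 2.33 ± 1.44 FPKM in injured and 0.344 ± 0.144 FPKM in control muscles while Apln had a log2 difference of 3.18. Pecam1, found in all vessels, was at 12.9 ± 7.09 FPKM in injured and 9.0 ± 3.91 FPKM in control muscles and Vegfa at 28.2 ± 9.30 FPKM in injured and 39.7 ± 8.32 FPKM in control muscles. Of 19 hypoxia genes 9 rose (5 under quantile normalization and with a pseudocount of 1), with Hif1a at 10.99 ± 4.26 FPKM in injured and 3.28 ± 0.510 FPKM in control muscles. Among adipocyte genes Cebpa and Pparg were higher and Adipoq, Retn and Cfd lower, and Adipoq, Retn and Pparg held in 6, 7 and 6 of 10 fits that left out 1 muscle. Both Cebpa and Pparg passed the filter through the injured mean alone, so a higher value was built into them. None of the 9 adipocyte genes with a control mean of at least 1 FPKM rose. Nothing could be tested in 18 T and NK cell and 8 B cell genes, all below 1 FPKM in both groups.

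Some genes that rose spread widely among the 5 injured muscles. Lcn2, the iron-trapping lipocalin of neutrophils and stressed tissue, was at 97.4, 71.9, 524, 18.1 and 45.8 FPKM in injured muscles, against 9.04, 10.1, 71.3, 5.41 and 8.25 FPKM in control muscles. The call held in 7 of 10 fits that left out 1 muscle. Its injured B library held 1029.9 FPKM and its injured A library 17.4 FPKM. Ccl8, a chemokine of macrophages, stood at 3.48, 16.2, 7.96, 16.3 and 87.4 FPKM in injured muscles, against 0.695, 2.54, 0.365, 0.567 and 0.505 FPKM in control muscles, and Plac8, a monocyte gene, at 14.6, 25.6, 17.2, 57.6 and 141 FPKM in injured muscles, against 0.473, 1.71, 1.3, 0.645 and 0.133 FPKM in control muscles, with animal 5 the highest in both. Ifi27l2a, an interferon-stimulated gene, had 21.6, 51.9, 31.5, 103 and 272 FPKM in injured muscles, against 19.5, 39.5, 7.49, 8.14 and 12.6 FPKM in control muscles, and its groups overlapped, with a call in 9 of those 10 fits. Sphk1, a kinase of lipid signaling, was at 2.83, 3.97, 23.1, 0.984 and 2.65 FPKM in injured muscles. The highest of these, animal 3, rests on its library B, at 45.8 FPKM, since its library A held 0.295 FPKM. At the other end, the 6 genes of at least 100 FPKM with the smallest differences were Eif4a2, Prdx5, Hint1, Gstp1, Psmc3 and Eef1g, which serve translation, redox balance and protein turnover. Eef1g, a translation factor, stood at 225, 219, 194, 195 and 239 FPKM in injured muscles, against 230.5, 231, 193, 191 and 219 FPKM in control muscles.

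The difference at 24 h was set against those at 10 h (5 injured and 5 control muscles) and 48 h (3 injured and 4 control), in other mice, by the contrast of differences in limma over 11427 genes. Against 10 h, 6 genes had a higher difference, with its sign, at 24 h (0.0525%) and 11 a lower one (0.0963%). Library A alone gave 180 (145 and 35), and the blocked fit 143 (66 and 77). The count was 327 without the injured muscle of animal 3 at 24 h, 27 without that of animal 1, 11 without that of animal 4 and 146 without the injured muscle of animal 4 at 10 h. Genes of macrophages were among the 6. Ms4a7, a membrane protein of macrophages, averaged 0.526 ± 0.462 FPKM at 10 h, 12.2 ± 10.6 FPKM at 24 h and 31.3 ± 20.7 FPKM at 48 h in injured muscles, with control means of 0.126, 0.203 and 0.183 FPKM. Its difference at 24 h exceeded that at 10 h by 3.80 ± 0.67 on the log2 scale (SE, adjusted p = 0.013). Apoc2, an apolipoprotein, and Rgs1, a brake on chemokine receptors, exceeded theirs by 3.76 and 3.02 (adjusted p = 0.045 and 0.014). Bcl2a1b, a survival gene of myeloid cells, and Nppb exceeded theirs by 3.78 and 4.38. The remaining gene, Slc25a29, a carrier of basic amino acids, differed by -1.59 at 10 h and -0.22 at 24 h. With library A alone Spp1, Arg1, Trem2, C3ar1 and Apoe also had higher differences at 24 h, and Egr1 a lower one. 

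Rcan1, an inhibitor of calcineurin that responds to calcium, had the second largest decline. It averaged 459 ± 178 FPKM at 10 h, 92.3 ± 26.6 FPKM at 24 h and 48.0 ± 12.2 FPKM at 48 h in injured muscles, against control means of 32.8, 29.9 and 25.5 FPKM. The difference at 24 h minus that at 10 h was -2.08 ± 0.39 (SE, adjusted p = 0.014), and the gene was called higher at 24 h itself. The interferon-inducible GTPases Gm4841 and Irgm2 had 3.68 and 2.40 at 10 h and -0.60 and 0.49 at 24 h. Tnip2, which restrains NF-kB, had 3.22 and 1.63, Aurka, a mitotic kinase, 1.41 and -0.27, and Depdc7 2.21 and 0.71. Among the others were Fam179a, Ociad2, Ptpn2 and Tead3. In the fit over the 3 time points the median of the immediate early list was 2.95 at 10 h and 2.04 at 24 h, with no member called between the times except Egr1 with library A alone.

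Against 48 h, 3 genes had a higher difference, with its sign, at 24 h (0.0263%) and 105 a lower one (0.919%), and library A alone gave 1 and 33. Genes of new fiber formation and of dividing cells were among the 105. Myog averaged 7.99 ± 4.64 FPKM at 24 h and 90.2 ± 60.8 FPKM at 48 h in injured muscles, against 6.00 ± 5.87 and 2.6 ± 0.483 FPKM in control muscles, a difference of differences of -3.89 ± 0.90 (SE, adjusted p = 0.037), which library A alone left at adjusted p = 0.062. Chrng, the fetal subunit of the acetylcholine receptor, was at 0.0826 ± 0.0512 FPKM at 24 h and 2.31 ± 1.11 FPKM at 48 h in injured muscles (-3.80, adjusted p = 8.9e-05). Tmem8c, which encodes the fusion protein Myomaker, and Gm7325, whose locus encodes the fusion protein Myomixer, differed by -3.72 and -4.20. Sfrp2, a Wnt antagonist of stromal cells, had the largest gap, -5.22 (adjusted p = 0.0016), with injured means of 0.186 FPKM at 24 h and 6.60 FPKM at 48 h. The cell division genes Ccnb2 and Ube2c were at 0.487 and 1.22 FPKM at 24 h and at 4.13 and 7.68 FPKM at 48 h in injured muscles, and with library A alone the contrast of Ube2c had an adjusted p of 0.063. The 3 genes with a higher difference at 24 h were Prima1, Gm16576 and Ccdc146, whose differences at 48 h were -2.83, -1.96 and -1.13 and at 24 h -1.05, -0.44 and 0.33. With library A alone the contrasts of Prima1 and Ccdc146 both had an adjusted p of 0.062, and Prima1 lost its call at 24 h. The count rested on single muscles. It was 4 when the injured muscle of animal 4 at 48 h was left out, and 944 when that of animal 5 at 24 h was.

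**Figure D5:**
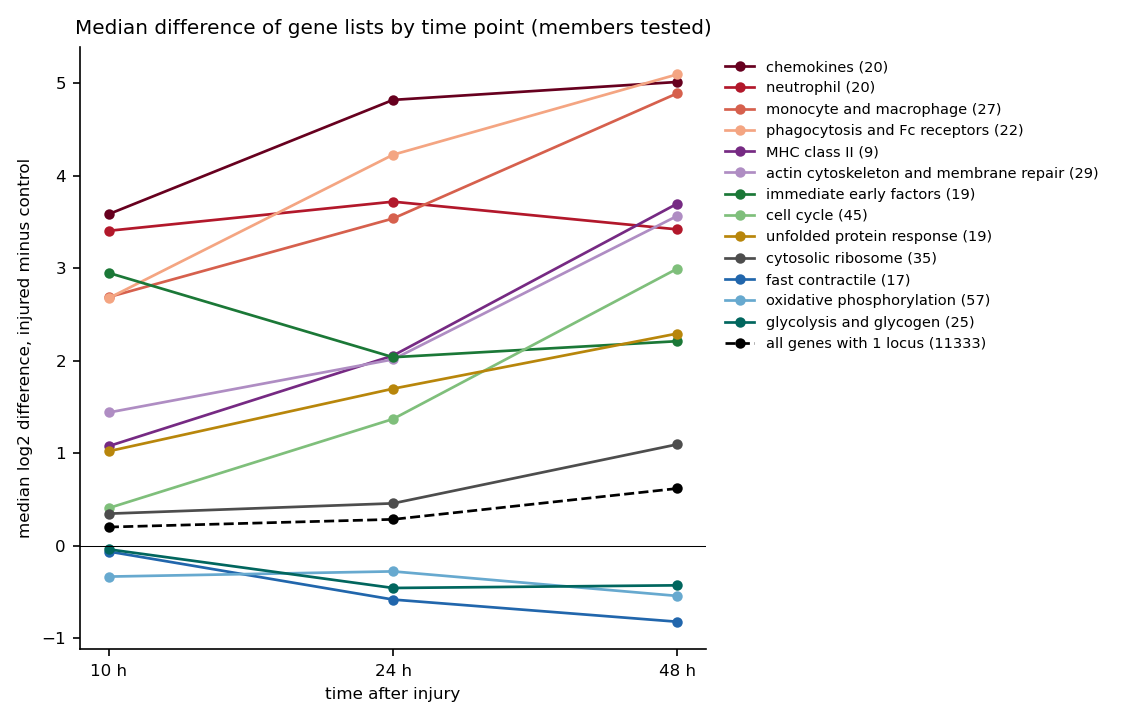
Median log2 difference, injured minus control, of the tested members of 13 gene lists (number in brackets) and of all genes with a single locus at 10, 24 and 48 h, from the fit over these 3 time points. The chemokine list stands highest at 10 h (3.59) and 24 h (4.82) and the phagocytosis list at 48 h (5.09), the immediate early list has its highest median of 2.95 at 10 h, and the median of the cell cycle list is 0.41 at 10 h and 1.37 at 24 h and is higher still at 48 h.

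Isoforms of the same gene changed in share. Of 571 genes with 2 or more isoforms of at least 1 FPKM, 49 (8.58%) changed in isoform usage at 24 h by the diffSplice test of limma at adjusted p under 0.05, and 122 had an unadjusted p under 0.05. With library A alone 63 of 575 genes were called. Shares are of the tested isoforms of a gene and are means over 5 muscles, and isoforms are given by their position in mm9. Rtn4, the Nogo gene of the endoplasmic reticulum, has 3 isoforms that share an end and differ in their start. The shortest, chr11:29618563-29644414, held 80.7% in injured muscles (67.7% to 88.2%) and 98.8% in control muscles (98.2% to 99.1%). Those that start farther out held 6.05% and 13.2% in injured muscles, against 0.489% and 0.745% in control muscles (adjusted p = 3.6e-08). Plec, which ties intermediate filaments to membranes, used its longest isoform, chr15:76001404-76059927, for 31.0% in injured and 7.59% in control muscles (adjusted p = 9.6e-08). Prkacb, a catalytic subunit of protein kinase A, used its short isoform, chr3:146392543-146444380, for 15.1% in injured muscles (6.43% to 26.0%) and 0.295% in control muscles (adjusted p = 0.00011). Gsn, gelsolin, which cuts actin filaments and exists in a secreted and a cytosolic form, used the isoform chr2:35111879-35163422 for 20.9% in injured muscles (10.9% to 47.1%) and 1.53% in control muscles (0.512% to 4.02%), although the gene as a whole was not called (67.7 ± 19.1 FPKM in injured and 84.2 ± 32.0 FPKM in control muscles). Pkig, an inhibitor of protein kinase A, used chr2:163519773-163551894 for 66.2% in injured and 36.8% in control muscles, and Homer1, a scaffold protein of synapses and muscle, used chr13:94074450-94126785 for 41.8% and 18.1% (adjusted p = 0.0002 in both). All 6 changes were called with library A alone as well.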

How the data were processed

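RNA-seq libraries of polyadenylated RNA were prepared by the authors with a strand-specific kit from a portion of each muscle, and the deposited gene and isoform tables hold FPKM as the authors' software wrote them, made with TopHat, Cufflinks and Cuffdiff on mm9 per the submitters' processing notes. The version of TopHat was not given in the sources used here. FPKM carries no read counts, so depth per library is unknown and no count test or counting interval was used. Of 92 labelled libraries 80 had values in the tables, and the other 12 were not analysed here.

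Libraries A and B of animal 3 were averaged per leg. Symbols at several loci (259) and symbols turned into dates (27 rows) were kept in the fits and not named. Log2(FPKM + 0.1) was fitted, for genes that averaged 1 FPKM or more in either group, in limma 3.58.1 (R 4.3.3, data.table version 1.17.8) with a mean-variance trend, 5 muscles a side, and a gene was called at a Benjamini-Hochberg adjusted p under 0.05 and 2-fold. The same was done over 27 muscles of 10, 24 and 48 h for the contrasts of differences, and isoforms were tested by diffSplice. Both legs of a mouse are paired by design, and the correlation of their deviations from the group means was 0.17, 0.11, 0.46, 0.38 and 0.0084 in animals 1 to 5, and 0.16, 0.13, 0.095, 0.23 and -0.026 with library A of animal 3 alone. The fit with the animal as a block was therefore an alternative beside the unblocked fit. The fits were tested on simulated data. Tables and figures were made in Python 3.11.15 with NumPy 2.4.6, pandas 2.3.3 and Matplotlib 3.10.9.

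The groups, the 52 gene lists (1087 symbols, 875 tested, 206 below the filter, 3 at several loci and 3 not analysed here) and the cell type markers were chosen with earlier results of these data known. Genes were named by rule: the 12 largest rises and falls among called genes whose groups do not overlap, members of the lists, up to 6 genes in each direction for each contrast of times, the 6 called genes with the widest spread among injured muscles, the 6 smallest p for isoform usage, and the 6 steadiest genes of at least 100 FPKM. Genes outside this rule were named after their values were seen. Alternatives were a pseudocount of 1 or 0.01, no filter or at least 5 FPKM, quantile, upper quartile and median scaling, library weights, the fit over all time points, library A or B alone, the block, no fold threshold, and leaving out each muscle or animal. Library A alone was added for the contrasts of times and isoforms, and together with the block and with quantile normalization for the 24 h calls, after the data were seen. A few genes are not reported here by name, though they stay in the fits and counts.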

Additional observations from a re-analysis of the deposited data

Results flagged for a closer look

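In a group of 5 muscles, 1 muscle stood apart for some of the genes named here, by a gap to its nearest neighbor, as a share of the whole range of log2(FPKM + 0.1), above the 95% limit of Dixon's test, which chance passes in about 1 group in 20. Of 536 groups looked at, 31 (5.78%) passed, 23 of them control and 8 injured groups. The pooled share is near that of chance, but the groups that passed were not spread evenly over the muscles. The largest number, 15, were the control muscle of animal 3, which was the highest control for Apoc2 (share 1, 0.0564 FPKM), Clec4d (0.825), Csf3r (0.711), Cxcl2 (0.785), Fosl1 (0.724), Gabarapl1 (0.749, 133 FPKM), Il6 (0.749), Lcn2 (0.76, 71.3 FPKM), Mss51 (0.781, 81.7 FPKM), Plaur (0.836), Sat1 (0.73), Slc39a14 (0.906) and Tnip2 (0.712), and the lowest control for Aurka (0.793) and Pgam2 (0.818). Its value is the mean of the 2 libraries of that muscle, and the part of library B in each was not tested here beyond the values with library A alone. The injured muscle of animal 3 was the highest injured muscle for Mstn (0.741, 20.2 FPKM) and Slc39a14 (0.748, 54.8 FPKM). The control muscle of animal 2 was the highest control for Bcl2a1b (0.732), Laptm5 (0.906), Mmp3 (0.746) and Retnla (0.727, 38.3 FPKM), that of animal 5 for F10 (1, 0.00935 FPKM), and that of animal 1 for Tnni1 (0.753), while the control muscle of animal 1 was the lowest for Ube2c (0.785) and Myh4 (0.855, listed at 0). Among injured muscles, that of animal 4 was the lowest for Cdh15 (0.711) and Wnt4 (0.769), and that of animal 5 the lowest for Cers1 (0.788), Gm16576 (0.749) and Myh4 (0.871, listed at 0) and the highest for Lamp1 (0.731, 202 FPKM).

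The injury difference itself changed between times, by the contrast of differences in limma, for the following named genes. At 24 h it exceeded that at 10 h by 3.76 for Apoc2, 3.78 for Bcl2a1b, 3.80 for Ms4a7, 4.38 for Nppb, 3.02 for Rgs1 and 1.37 for Slc25a29 on the log2 scale. The difference at 24 h minus that at 10 h was -1.68 for Aurka, -1.50 for Depdc7, -1.48 for Fam179a, -4.27 for Gm4841, -1.91 for Irgm2, -1.24 for Ociad2, -1.39 for Ptpn2, -2.08 for Rcan1, -1.38 for Tead3 and -1.60 for Tnip2. At 24 h it exceeded that at 48 h by 1.46 for Ccdc146, 1.52 for Gm16576 and 1.78 for Prima1, and the difference at 24 h minus that at 48 h was -3.76 for Ccnb2, -1.78 for Chrna1, -3.80 for Chrng, -4.20 for Gm7325, -3.06 for Lgals3, -3.89 for Myog, -5.22 for Sfrp2, -3.72 for Tmem8c and -4.00 for Ube2c. With library A alone the contrasts with 48 h of Lgals3 and Chrna1 had adjusted p of 0.074 and 0.13.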

How the results depend on the processing

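The number of genes called at 24 h, 1781 (1710 higher and 71 lower), was 1076 (1034 and 42) with a pseudocount of 1, 804 (755 and 49) with at least 5 FPKM, 1106 (1060 and 46) with library B of animal 3 alone and 3791 (3162 and 629) with no fold threshold. Higher and lower genes numbered 860 and 471 under quantile normalization, 1105 and 331 under median scaling, 1340 and 148 under upper quartile scaling, and 910 and 552 with library A alone and quantile normalization together, an alternative chosen after seeing the data. The cause of these changes was not tested, apart from fewer genes being tested at 5 FPKM and the removal of the fold threshold. Without 1 muscle at a time the calls ranged from 1317 to 2121, those higher from 1266 to 2003 and those lower from 50 to 118, and without both legs of an animal from 1303 to 2173, from 1266 to 2058 and from 37 to 115. The other alternatives, a pseudocount of 0.01, no filter, library weights and the fit over all time points, stayed within 1.5 times of each of these 3 counts.

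With the animal as a replicate block the 24 h calls numbered 1813 (1729 and 84), including all 1781. Pairing the legs gave 143 calls in place of 17 between the 24 h and 10 h differences, 96 in place of 108 between those of 24 h and 48 h, and 56 in place of 49 for isoform usage. Of the 191 named genes called, none lost its call under the block, and among those not called Actc1, Chac1, Gadd45a, Pdk4 and Slc39a14 gained one.

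The calls between 24 h and 10 h, 17, were 231 under quantile normalization and 180 with library A alone, and 11 to 327 without 1 muscle at a time. Those between 24 h and 48 h, 108, were 196 with a pseudocount of 1, 34 with library A alone, and 4 to 944 without 1 muscle. Leaving out an injured 24 h muscle gave 11 (animal 1), 56 (animal 2), 36 (animal 3) and 53 (animal 4), and leaving out a 24 h control gave 38 (animal 1), 16 (animal 2), 44 (animal 5) and 204 (animal 4). Leaving out a 48 h control gave 55 (animal 2), 12 (animal 4) and 12 (animal 5), and leaving out an injured 48 h muscle 298 (animal 1) and 429 (animal 5). Isoform calls, 49 of 571 genes tested, numbered 24 of 155 with at least 5 FPKM and 63 of 575 with library A alone. Without 1 muscle they numbered 32 to 49, the fewest without the injured muscle of animal 5.

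Of 191 named genes called at 24 h, 168 kept the call without each single muscle, and Cdk1, Osm and Tnf were below the filter, and so not tested, without the injured muscle of animal 5. The other 20 were Adipoq, Axl, Dysf, Eno1, Frzb, Id1, Ifi27l2a, Lcn2, Lox, Mstn, Myod1, Notch1, Odc1, Pparg, Prima1, Retn, Slc2a4, Srxn1, Timp4 and Wnt4. Notch1 turned to -0.32 under quantile normalization and to -0.43 when library A was used with it, and Ccdc146 turned to -1.04 when both were used. With FPKM alone the number of reads behind a value is not known, and low values such as those of control muscle for myeloid genes may rest on few reads, so their log2 differences are imprecise and depend on the pseudocount. Isoform values are estimates by the authors' software and carry no error of estimation here. The 5 mice of each time are the unit of replication, and 10 h and 48 h are other mice.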

Other observations

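Genes of polyamine metabolism, which were looked at after their values were known, moved in different directions at 24 h. Odc1, the first enzyme of polyamine synthesis, averaged 158 ± 55.9 FPKM in injured and 83.3 ± 42.4 FPKM in control muscles, a log2 difference of 1.00 ± 0.35 (SE, adjusted p = 0.041) that was not called under quantile normalization (0.96). Srm, the spermidine synthase, averaged 12.8 ± 5.04 FPKM in injured and 3.06 ± 0.850 FPKM in control muscles, and Sat1, which acetylates polyamines for export, stood at 38.3, 57.5, 87.5, 37.4 and 65.7 FPKM in injured muscles, against 8.92, 9.24, 22.2, 6.84 and 6.68 FPKM in control muscles. Smox, the spermine oxidase, was lower, at 26.4, 30.9, 63.8, 31.9 and 35.3 FPKM in injured muscles, against 75.8, 62.9, 129, 137 and 186 FPKM in control muscles, as were Amd1 and Amd2, described above. Sms, the spermine synthase, was at 24.6 ± 4.52 FPKM in injured and 29.9 ± 3.33 FPKM in control muscles, with no call.

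Muscle and general forms of the same protein, also chosen after their values were seen, had different values beyond glycolysis. Rpl3 was called higher (2.34) and its muscle form Rpl3l had -0.57 (187 ± 38.8 FPKM in injured and 272 ± 16.6 FPKM in control muscles), with no call. The elongation factor Eef1a1 averaged 488 ± 260.5 FPKM in injured and 126 ± 40.1 FPKM in control muscles (1.86, called) and its muscle and nerve form Eef1a2 200.5 ± 35.8 FPKM in injured and 282 ± 41.1 FPKM in control muscles (-0.50, not called). The glucose carrier Slc2a1 averaged 9.11 ± 4.11 FPKM in injured and 1.23 ± 0.232 FPKM in control muscles, a log2 difference of 2.70 ± 0.27 (SE, adjusted p = 1.6e-05), and the insulin-dependent carrier of muscle Slc2a4 66.9 ± 23.3 FPKM in injured and 133 ± 15.2 FPKM in control muscles (-1.07 ± 0.23, SE, adjusted p = 0.0037), whose call was lost with library A alone, where it was short of 2-fold (-0.96). Within the pairs, the difference between the forms was not tested. The macrophage and neutrophil lysozyme Lyz2 was among the most abundant genes that rose, at 253, 307, 199, 596 and 1102 FPKM in injured muscles, against 15.3, 39.7, 12.4, 10.1 and 10.2 FPKM in control muscles.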
